A study of Homo sapiens with 9 samples.

Results

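Extracellular proteolysis was examined through 9 genes: the matrix metalloproteinases MMP1, MMP3 and MMP14, the tissue inhibitors of metalloproteinases TIMP1, TIMP2 and TIMP3, the plasminogen activators PLAU and PLAT, and the urokinase receptor PLAUR. They were chosen with earlier results of these data known and found by gene name, and each name matched 1 of the 58735 genes counted. Their counts beside the shares of all genes are therefore a description. RNA was sequenced from MDA-MB-231, an established human triple-negative breast cancer cell line, in 3 groups of 3 libraries each: cells given the vehicle DMSO, cells that survived rising concentrations of erastin (erastin-R), which blocks the cystine import of system xc-, and cells that survived rising concentrations of RSL3 (RSL3-R), which inhibits the lipid peroxidase GPX4. Both agents cause ferroptosis, an iron-dependent death by lipid peroxidation, and the sequencing was made to find genes linked to surviving it. All 9 libraries came from this line alone, and the labels give neither doses nor times and do not say whether the libraries of a group were grown as separate cultures. The p-values therefore measure the spread between these libraries, which may be technical.

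Matrix metalloproteinases are zinc-dependent enzymes that cut collagens and other proteins of the extracellular matrix, and TIMPs bind their active site and block it. PLAU (urokinase) and PLAT (tissue plasminogen activator) are serine proteases that turn plasminogen into plasmin, which degrades fibrin and activates several metalloproteinase precursors. PLAUR anchors urokinase at the cell surface. MMP14 sits in the plasma membrane, where with TIMP2 it activates the MMP2 precursor, and the cell line is widely used as a model of invasive growth.

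Total counts ranged from 15405102 to 17273464 per library. Levels are given as CPM, the read count relative to the library's total count after scaling by the trimmed mean of M-values, and 16188 genes passed the filter on low counts and were tested with edgeR's quasi-likelihood test. A gene is said to have risen or fallen where its Benjamini-Hochberg adjusted p over these genes was under 0.05, and to have passed the threshold where its log2 fold change was also at least 1 in either direction. Groups without overlap were common. Of all genes tested, 28.7% lay wholly higher and 29.1% wholly lower in erastin-R than in vehicle libraries. The shares were 30.4% and 31.4% in RSL3-R against vehicle, and 25.6% and 29.6% in RSL3-R against erastin-R. Of the 9 genes, 8 were tested, and MMP3 was too scarce. Markers that the line is known to express, VIM, AXL, EGFR, CD44 and KRT18, together held 3107 to 3580 CPM. The luminal and epithelial markers ESR1, PGR, CDH1, EPCAM, FOXA1 and GATA3 together held 8.19 to 12.7 CPM. Of the first list KRT18 alone passed the threshold against vehicle, as a fall in erastin-R. It averaged 168 CPM in vehicle, 77.3 in erastin-R and 171 in RSL3-R libraries. Of the second list CDH1 alone passed it, as a rise in RSL3-R, and averaged 1.14, 0.750 and 3.43 CPM. Markers of fibroblasts (7 genes), leukocytes (6 genes) and endothelium (5 genes) summed to at most 25.7 CPM per list in any library. The endothelial sum was 18.6 to 22.5 CPM in vehicle, 10.9 to 12.7 in erastin-R and 22.4 to 25.7 in RSL3-R libraries, the leukocyte sum 4.69 to 5.73, 1.59 to 2.91 and 4.90 to 5.79, and the fibroblast sum 14.7 to 17.1, 13.7 to 17.2 and 20.6 to 23.2. Within these lists, VWF, CDH5 and CD3E averaged at most 0.287 CPM in every group, and COL3A1 had no count in the vehicle and erastin-R libraries. Other listed markers were detected. PECAM1 averaged 9.97 CPM in vehicle, 1.78 in erastin-R and 12.8 in RSL3-R libraries, and KDR 9.90, 9.57 and 10.9. In the same order COL1A1 averaged 7.70, 8.77 and 10.1 CPM, and PDGFRB 6.98, 6.37 and 11.3. CD14 averaged 3.78, 1.61 and 3.22 CPM, and PTPRC 0.424, 0.342 and 1.37. PECAM1 and CD14 fell past the threshold in erastin-R (log2 fold change -2.47 and -1.23, adjusted p = 8.28e-08 and 3.16e-04 by edgeR's quasi-likelihood test), and PTPRC rose past it in RSL3-R (1.67, adjusted p = 0.00818). DCN fell past it in both survivor groups and averaged 0.932 CPM in vehicle, 0.122 in erastin-R and 0.208 in RSL3-R libraries. The part of these markers in the results below was not tested.

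In erastin-R cells, PLAU, MMP1 and TIMP3 fell by 1.02, 0.96 and 0.89 on the log2 scale, TIMP2 and PLAUR fell by 0.38 and 0.30, PLAT and TIMP1 rose by 0.23 and 0.15, and MMP14 did not pass the test. By the adjusted p, 2 of the 8 genes tested rose and 5 fell, where 27.1% of all genes tested rose and 26.8% fell. PLAU alone passed the threshold, as a decrease, and none passed it as an increase; 6.66% and 6.7% of all genes tested did so. The median log2 fold change of the 8 genes was -0.34, and that of all genes tested was -0.00418.

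In RSL3-R cells, MMP1, PLAT, TIMP1, TIMP2 and PLAU rose by 1.19, 0.72, 0.39, 0.31 and 0.18 on the log2 scale, and TIMP3, PLAUR and MMP14 did not pass the test. That is 5 of 8 higher and 0 lower, where 23.8% of all genes tested rose and 24.9% fell. MMP1 alone passed the threshold, as an increase, which 6.02% of all genes tested did, and 0 of the 8 passed it as a decrease, against 4.08%. Of all genes past the threshold 59.6% were higher, and 50.8% after quantile normalization. The median log2 fold change of the 8 genes was 0.25 and that of all genes tested 0.00523. The comparisons of erastin-R and RSL3-R with vehicle share the 3 vehicle libraries.

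The survivors of the 2 agents were also compared with each other. In the shared model this difference follows from the 2 comparisons with vehicle, so that its counts are not separate evidence. Every gene tested except MMP14 was higher in RSL3-R than in erastin-R cells by the adjusted p, 7 of 8, and 0 were lower, where 22.3% of all genes tested were higher and 26.9% lower. MMP1, PLAU and TIMP3 passed the threshold as higher in RSL3-R, which 6.86% of all genes tested did; 0 of the 8 passed it as lower, against 3.48%. The median log2 difference was 0.59, and that of all genes tested was -0.0237. Of all genes past the threshold, 66.4% were higher in RSL3-R here, and 55.1% after quantile normalization, under which the same number of the 9 genes, 3, passed it as higher. Because RNA was taken from many cells together, a smaller share of cells making a transcript and less transcript per cell cannot be told apart.

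**Figure D1:**
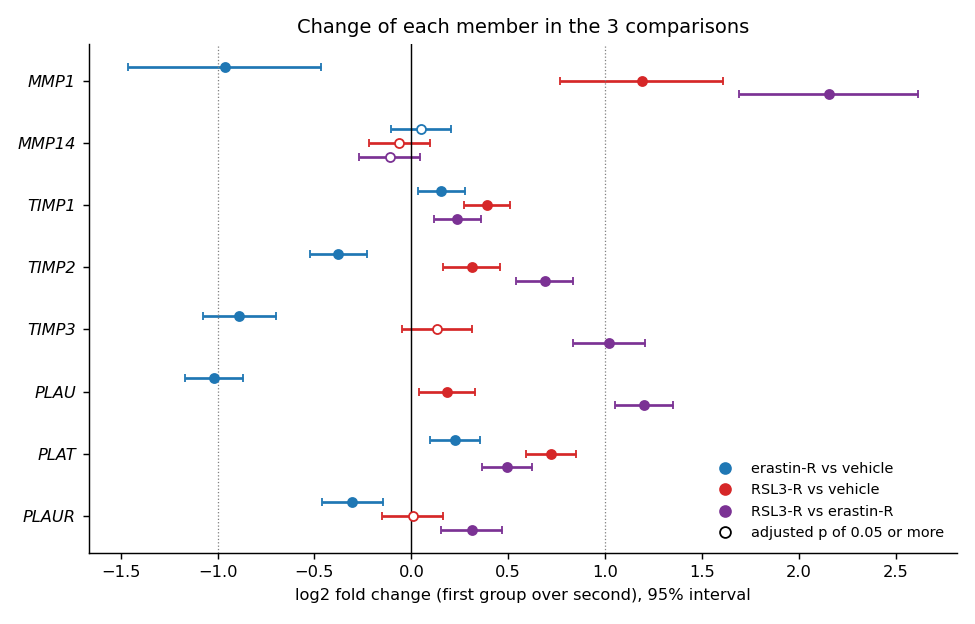
Log2 fold change of each of the 8 genes tested (x axis, first group over second, with the 95% interval) in the 3 comparisons, where filled points have an adjusted p under 0.05, open points do not, and dotted lines mark a log2 fold change of 1 in either direction. MMP1 at 2.15, PLAU at 1.20 and TIMP3 at 1.02 lie farthest to the right for RSL3-R over erastin-R, and the 3 intervals of MMP14 cross 0.

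MMP1, interstitial collagenase, cuts fibrillar collagens. The gene (ENSG00000196611) lies on chromosome 11 at 102789920 to 102798160 of GRCh38, on the minus strand. It was scarce, with 26 to 177 counts per library. Its level was 4.52, 4.13 and 2.96 CPM in vehicle libraries 1, 2 and 3, 1.84, 2.54 and 1.58 CPM in erastin-R and 8.30, 7.88 and 10.3 CPM in RSL3-R. All erastin-R libraries lay below and all RSL3-R libraries above the vehicle libraries. MMP1 rose in RSL3-R cells by 1.19 on the log2 scale (SE 0.20, adjusted p = 1.93e-04 by edgeR's quasi-likelihood test), a 2.28-fold increase. In erastin-R it fell by 0.96 on the log2 scale (SE 0.23, adjusted p = 0.00295), so that RSL3-R held 4.45 times the level of erastin-R cells (log2 difference 2.15, SE 0.21, adjusted p = 2.88e-06). This was the largest difference among the 8 genes. Of the exon bases of MMP1, 7.614% overlap WTAPP1 on the other strand, which never held more than 4 counts.

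MMP3, stromelysin 1, cuts proteoglycans, laminin and fibronectin and can activate the MMP1 precursor. The gene (ENSG00000149968) follows MMP1 on the minus strand of chromosome 11, at 102835801 to 102843803, 37.64 kb away. Vehicle libraries held 3, 7 and 6 counts, erastin-R libraries 2, 2 and 0, and RSL3-R libraries 4, 1 and 1. The erastin-R counts were all below the vehicle counts, and the RSL3-R counts overlapped both. The ratio of the summed counts, scaled by library size, was 0.251 for erastin-R over vehicle (95% interval 0.0611 to 0.778) and 0.378 for RSL3-R over vehicle (0.121 to 1.02); the intervals cover counting error only. With no filter on low counts, edgeR's quasi-likelihood test gave adjusted p = 0.178 and 0.390 over 34018 genes. A floor of 3 counts corresponds to 0.175 to 0.193 CPM per library.

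MMP1 and MMP3 belong to a row of 9 metalloproteinase genes that spans 435.2 kb of chromosome 11, from 102520508 to 102955734. The other 7, MMP7, MMP20, MMP27, MMP8, MMP10, MMP12 and MMP13, had at most 5 counts in any library. MMP1 was thus the sole member of this row that could be tested.

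MMP14, the membrane-anchored collagenase MT1-MMP, was the most abundant of the 9 by CPM. The gene (ENSG00000157227) lies on chromosome 14 at 22836557 to 22849027, plus strand. Its level was 773, 734 and 683 CPM in vehicle libraries, 677, 781 and 810.1 CPM in erastin-R and 668, 733 and 697 CPM in RSL3-R, and the 3 groups overlapped. Against vehicle, erastin-R differed by 0.05 on the log2 scale (95% interval -0.11 to 0.21, adjusted p = 0.578 by edgeR's quasi-likelihood test). RSL3-R differed by -0.06 (-0.22 to 0.09, adjusted p = 0.513). The difference of RSL3-R from erastin-R was -0.11 (-0.27 to 0.04, adjusted p = 0.217). These values moved with single libraries. Without erastin-R replicate 1 MMP14 was 0.12 higher in erastin-R than in vehicle (adjusted p = 0.0250, from 0.0250 to 0.999 over the 15 alternatives) and differed by -0.19 between RSL3-R and erastin-R (adjusted p = 0.00115, from 0.00115 to 0.704). Without RSL3-R replicate 1 the latter difference was -0.0447 (adjusted p = 0.704).

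**Figure D2:**
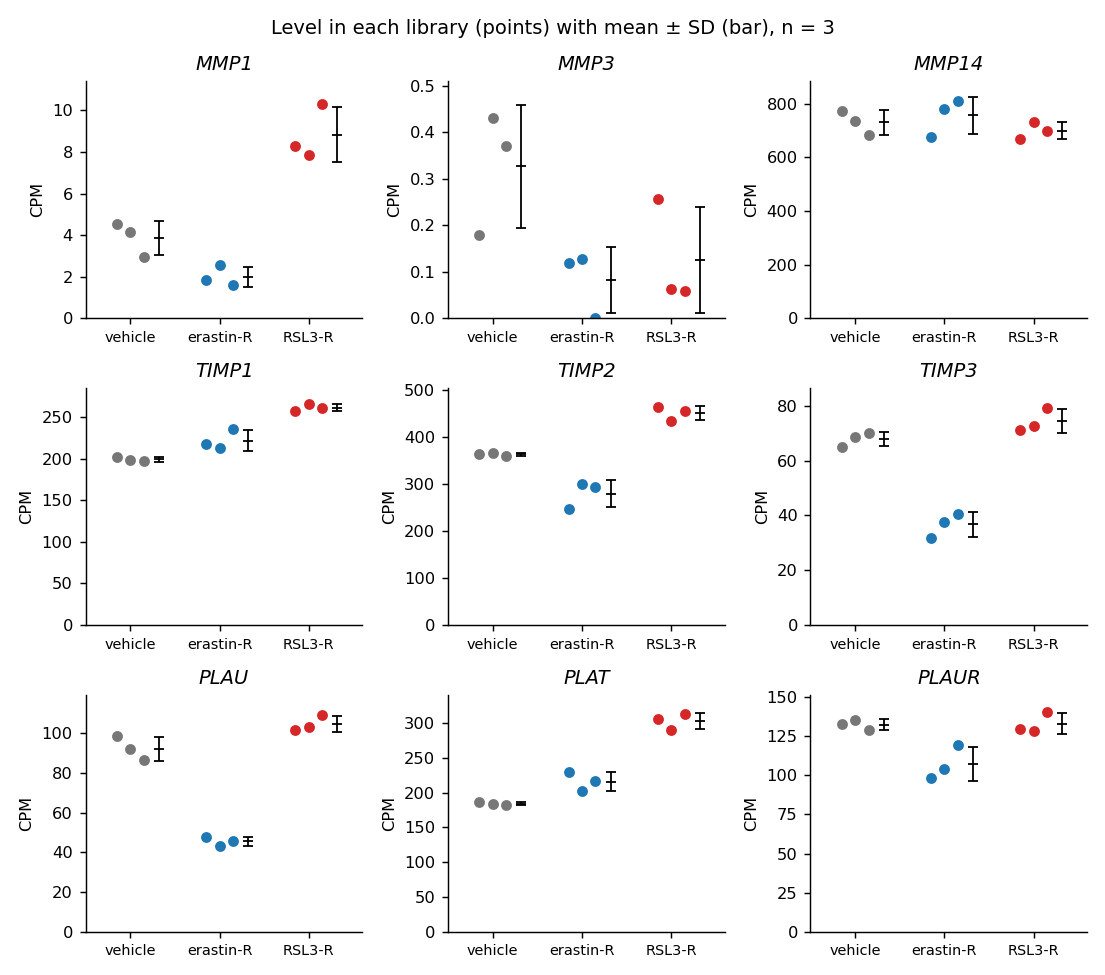
Level (CPM, linear y axis from 0) of each of the 9 genes in each library (points, replicates 1 to 3 from left to right) with the group mean and SD (bar), n = 3 per group. In PLAU and TIMP3 the 3 erastin-R libraries sit apart below all others, in PLAT and TIMP1 the levels step up from vehicle to erastin-R to RSL3-R, and in MMP14 the groups overlap.

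The 3 inhibitors moved differently. TIMP1 is a soluble inhibitor of most metalloproteinases that binds the membrane type poorly. Its gene (ENSG00000102265) lies on chromosome X at 47582313 to 47586789, inside the body of SYN1 on the opposite strand with no exon base in common. Its level was 202, 198 and 197 CPM in vehicle, 217, 212 and 236 CPM in erastin-R and 257, 266 and 261 CPM in RSL3-R libraries, with no overlap between any 2 groups. TIMP1 rose in RSL3-R by 0.39 on the log2 scale (SE 0.06, adjusted p = 6.07e-05 by edgeR's quasi-likelihood test). The rise in erastin-R was 0.15 (SE 0.06, adjusted p = 0.0326), and it was lost in 10 of 15 alternative analyses, among them leaving out any 1 vehicle library, erastin-R replicate 3 or RSL3-R replicate 2 or 3. The adjusted p was 0.0506 to 0.143 in those 10 and 0.00358 at the lowest in the others. RSL3-R exceeded erastin-R by 0.24 (adjusted p = 0.00318).

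TIMP2 inhibits metalloproteinases and also links MMP14 to the MMP2 precursor. The gene (ENSG00000035862) lies on chromosome 17 at 78852977 to 78925387, minus strand. Vehicle libraries held 365, 366 and 360.3 CPM, erastin-R libraries 247, 299.8 and 293 CPM, and RSL3-R libraries 464, 435 and 455 CPM. The 3 groups did not overlap, and erastin-R replicate 1 was the lowest. TIMP2 fell by 0.38 on the log2 scale in erastin-R (SE 0.07, adjusted p = 4.00e-04 by edgeR's quasi-likelihood test) and rose by 0.31 in RSL3-R (SE 0.07, adjusted p = 0.00187). It thus moved in opposite directions in the survivors of the 2 agents, which differed by 0.69 (SE 0.07, adjusted p = 3.04e-06). MMP1 and PLAU also passed the test with opposite signs against vehicle, but the PLAU rise in RSL3-R was lost in 6 of 15 alternative analyses. How many of all genes tested did so was not counted. Of the exon bases of TIMP2, 3.515% are shared with CEP295NL on the same strand, which never held more than 18 counts.

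TIMP3 stays bound to the extracellular matrix and inhibits ADAM proteases as well as metalloproteinases. The gene (ENSG00000100234) lies on chromosome 22 at 32801701 to 32863043, plus strand, within SYN3 on the other strand with no shared exon base. Its level was 65.2, 68.6 and 70.0 CPM in vehicle, 31.9, 37.7 and 40.6 CPM in erastin-R and 71.1, 72.8 and 79.4 CPM in RSL3-R libraries. The erastin-R libraries stood below all others, and the RSL3-R libraries just above the vehicle libraries. TIMP3 fell by 0.89 on the log2 scale in erastin-R (SE 0.09, adjusted p = 1.47e-06 by edgeR's quasi-likelihood test), to 36.7 ± 4.42 CPM from 67.9 ± 2.47 (SD, n = 3). Its value in RSL3-R was 0.13 above vehicle (95% interval -0.05 to 0.31, adjusted p = 0.212), and RSL3-R exceeded erastin-R by 1.02 (SE 0.09, adjusted p = 6.89e-07). Without erastin-R replicate 1, the lowest library, that difference was 0.93 and no longer passed the threshold on size.

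The promoter of TIMP3 is shown because TIMP3 had the largest fall of the 3 TIMP genes. These are the 246 bases of the plus strand that end at the base before the annotated start of the gene (RefSeq, GRCh38.p14, chr22:32801455-32801700). Capitals mark the only match to GGAA, the core letters of ETS factors, which on this strand reads TTCC.

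TIMP3: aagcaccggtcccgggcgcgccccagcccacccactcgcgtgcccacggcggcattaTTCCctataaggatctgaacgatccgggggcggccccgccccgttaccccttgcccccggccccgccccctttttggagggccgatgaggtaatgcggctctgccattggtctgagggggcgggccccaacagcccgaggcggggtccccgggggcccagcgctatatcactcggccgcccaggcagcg

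RefSeq promoters were at hand for 5 of the 9 genes, TIMP1, TIMP3, MMP14, PLAU and PLAUR. The 250 bases before each RefSeq start were searched on both strands for TGANTCA (AP-1), GGAA (ETS core) and an NF-kB consensus, with overlaps between motifs allowed. Each of these windows reached past the annotated start of its gene. AP-1 letters occurred in PLAUR alone, beside 6.57% of all 35116 promoters in the table, and the NF-kB letters in none of the 5, beside 1.73%. GGAA occurred in each, as in 92.7% of all promoters. The matches are letters in a window and not sites of binding. The GC content of the TIMP3 window was 72.4%, and that of the other starts ranged from 46.8% (a start of PLAU) to 68.8% (the other start of PLAU).

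PLAU, urokinase, is the activator that works at the cell surface and had the largest fall of the 8 genes in erastin-R cells with all libraries in the fit. The gene (ENSG00000122861) lies on chromosome 10 at 73909177 to 73917497, plus strand. Vehicle libraries held 98.4, 91.9 and 86.4 CPM, erastin-R libraries 47.5, 43.3 and 45.6 CPM, and RSL3-R libraries 102, 103 and 109 CPM. The highest erastin-R library was thus far below the lowest vehicle library, and the RSL3-R libraries lay narrowly above the vehicle range. PLAU fell by 1.02 on the log2 scale in erastin-R (SE 0.07, adjusted p = 5.57e-08 by edgeR's quasi-likelihood test), a 2.03-fold decrease. Without vehicle replicate 1 the log2 fold change was -0.97 and without erastin-R replicate 2 it was -0.99, both short of the threshold on size but not of the adjusted p, and in the second case MMP1 fell more (-1.18). In RSL3-R PLAU rose by 0.18 (SE 0.07, adjusted p = 0.0378), a rise lost in 6 of 15 alternative analyses, among them leaving out vehicle replicate 2 or 3 or RSL3-R replicate 2 or 3. The adjusted p was 0.0615 to 0.163 in those 6 and 0.00501 at the lowest in the others. RSL3-R held 2.30 times the PLAU level of erastin-R cells (log2 difference 1.20, SE 0.07, adjusted p = 2.00e-08). Of its exon bases, 31.05% overlap C10orf55 on the other strand, which never held more than 11 counts, and the strand setting of the counting is not given in the sources used here.

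PLAT, the tissue-type activator best known for dissolving fibrin clots, moved the other way from PLAU in erastin-R. The gene (ENSG00000104368) lies on chromosome 8 at 42175233 to 42207724, minus strand. Its level was 187, 183 and 182 CPM in vehicle, 229, 202 and 216 CPM in erastin-R and 305, 291 and 314 CPM in RSL3-R libraries. The 3 groups did not overlap, with vehicle lowest and RSL3-R highest. PLAT rose by 0.23 on the log2 scale in erastin-R (SE 0.06, adjusted p = 0.00577 by edgeR's quasi-likelihood test) and by 0.72 in RSL3-R (SE 0.06, adjusted p = 3.80e-07). The difference of 0.49 between RSL3-R and erastin-R passed the test as well (SE 0.06, adjusted p = 1.71e-05).

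PLAUR is the receptor that holds urokinase at the plasma membrane. The gene (ENSG00000011422) lies on chromosome 19 at 43646095 to 43670547, minus strand. Its level was 133, 136 and 129 CPM in vehicle, 98.0, 104 and 119 CPM in erastin-R and 129.6, 128 and 141 CPM in RSL3-R libraries. All erastin-R libraries were below the others, and RSL3-R and vehicle libraries overlapped. PLAUR fell by 0.30 on the log2 scale in erastin-R (SE 0.07, adjusted p = 0.00312 by edgeR's quasi-likelihood test). In RSL3-R the log2 fold change was 0.01 (95% interval -0.15 to 0.17, adjusted p = 0.940), and RSL3-R exceeded erastin-R by 0.31 (SE 0.07, adjusted p = 0.00308).

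The stretch of PLAUR with the AP-1 match is shown because no other of the 5 promoters searched held those letters. The 27 bases are from the minus strand (RefSeq, GRCh38.p14, chr19:43670339-43670365), with the match in capitals, and they lie within the annotated span of the PLAUR gene.

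PLAUR: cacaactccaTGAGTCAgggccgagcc

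Levels of different genes were compared as CPM per kilobase of exon length, which merges the exons of all annotated transcripts of a gene. In vehicle libraries the order was MMP14 with 163 ± 10.1, TIMP1 with 129 ± 1.76, TIMP2 with 64.5 ± 0.516, PLAU with 31.3 ± 2.04, PLAUR with 29.7 ± 0.766, PLAT with 27.8 ± 0.373, TIMP3 with 14.8 ± 0.537, MMP1 with 1.96 ± 0.414 and MMP3 with 0.159 ± 0.0644 CPM per kilobase (SD, n = 3). Only the ranges of PLAU and PLAUR overlapped between neighbours. These ranges cover the spread between libraries and not the error of the length, so that close ranks are not settled. In erastin-R cells PLAU, at 15.4 ± 0.702, ranked behind PLAT (32.6 ± 2.06) and PLAUR (24.0 ± 2.46), and the ranges of MMP14 (169 ± 15.7) and TIMP1 (144 ± 7.92) overlapped. In RSL3-R cells TIMP1 (169 ± 2.80) ranked before MMP14 (157 ± 7.24) and PLAT (45.8 ± 1.76) before PLAU (35.5 ± 1.39), with no overlap between neighbours among the 8 genes tested.

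Ratios of transcripts per kilobase within a library compare the mRNA of paired genes, with no test. How often groups lack overlap in the ratios of other gene pairs was not counted. Neither protein nor enzyme activity was measured. The ratio of MMP14 to its partner and inhibitor TIMP2 was 2.67, 2.53 and 2.39 in vehicle, 3.45, 3.29 and 3.49 in erastin-R and 1.82, 2.12 and 1.93 in RSL3-R libraries. The groups did not overlap. MMP14 itself passed the test in none of the 3 comparisons, and TIMP2 passed it in each. The ratio of MMP1 to TIMP1 was 0.0152 ± 0.00304 in vehicle, 0.00708 ± 0.00209 in erastin-R and 0.0265 ± 0.00401 in RSL3-R (SD, n = 3).

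On the plasminogen side, PLAU per PLAUR was 1.05 ± 0.0598 in vehicle, 0.646 ± 0.0781 in erastin-R and 1.19 ± 0.0188 in RSL3-R (SD, n = 3). PLAU per PLAT was 1.12 ± 0.0588 in vehicle, 0.474 ± 0.00844 in erastin-R and 0.774 ± 0.0244 in RSL3-R. Both ratios were lowest in the erastin-R libraries. RSL3-R libraries lay above vehicle libraries in PLAU per PLAUR and below them in PLAU per PLAT, and no 2 groups overlapped in either ratio.

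**Figure D3:**
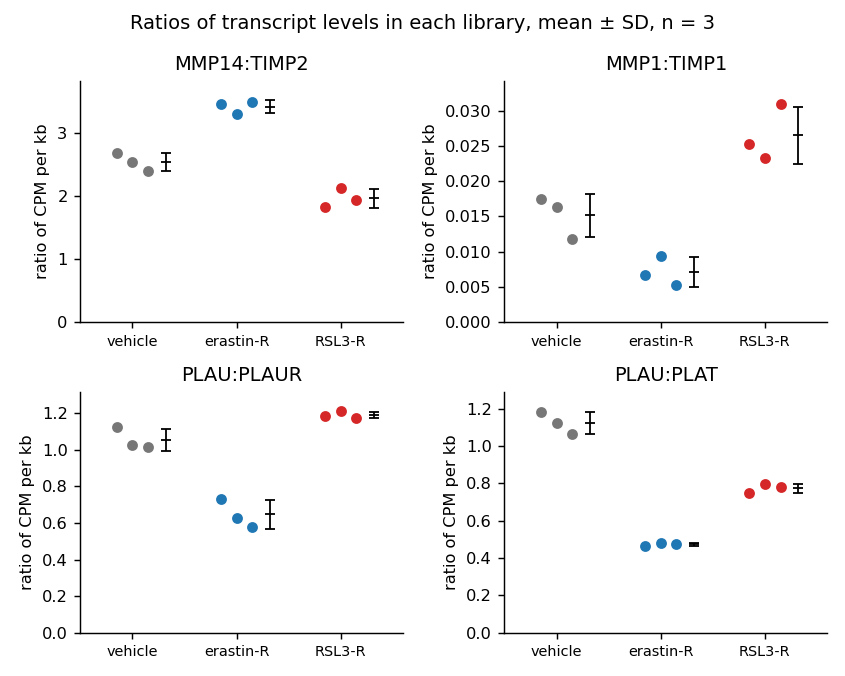
Ratio of CPM per kilobase (linear y axis from 0) for 4 pairs of genes in each library (points, replicates 1 to 3 from left to right) with the group mean and SD (bar), n = 3 per group. PLAU per PLAUR and PLAU per PLAT are lowest in erastin-R libraries, with means of 0.646 and 0.474, and MMP14 per TIMP2 is highest in erastin-R and lowest in RSL3-R.

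Of 85 other genes of extracellular proteolysis, 51 passed the filter on low counts. In erastin-R cells 17 of them rose and 15 fell, where 27.1% and 26.8% of all genes tested did, with a median log2 fold change of 0.03, and 5 each way passed the threshold, against 6.7% and 6.66% of all genes. In RSL3-R cells 27 rose and 8 fell, where 23.8% and 24.9% of all genes tested did, with a median of 0.29, and 6 higher and 2 lower passed the threshold, against 6.02% and 4.08%. RSL3-R exceeded erastin-R in 21 and lay below it in 8 (median 0.17), against 22.3% and 26.9% of all genes tested, with 10 and 2 past the threshold, against 6.86% and 3.48%. Transcripts of the substrates at both ends of the system, singled out after their values were seen, were nearly absent. MMP2, whose precursor MMP14 and TIMP2 activate, had 0 to 5 counts per library, and PLG, which encodes plasminogen, had 0 in every library. Their proteins were not measured, and the study's methods give fetal bovine serum in the medium.

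Among 20 other metalloproteinases, 7 were tested. In erastin-R cells 2 rose and 2 fell (27.1% and 26.8% of all genes tested), and in RSL3-R cells 5 rose and 0 fell (23.8% and 24.9%). MMP9, gelatinase B, held 1.87 ± 0.370 CPM in vehicle, 0.544 ± 0.289 in erastin-R and 1.61 ± 0.714 in RSL3-R (SD, n = 3). It fell by 1.75 on the log2 scale in erastin-R (SE 0.43, adjusted p = 0.00336 by edgeR's quasi-likelihood test) from 24 to 36 counts per library to 4 to 14, and its log2 fold change in RSL3-R was -0.22 (adjusted p = 0.653). The antisense gene SLC12A5-AS1, with no more than 4 counts, overlaps 18.41% of its exon bases. MMP17, a metalloproteinase with a membrane anchor, rose in RSL3-R by 1.76 (SE 0.24, adjusted p = 3.17e-05), from 1.87 ± 0.418 to 6.34 ± 1.75 CPM, and was at 2.29 ± 0.230 CPM in erastin-R (log2 fold change 0.29, adjusted p = 0.370).

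The ADAM and ADAMTS proteases cut cell surface proteins and matrix proteoglycans, and 19 of 28 were tested. In erastin-R cells 6 rose and 6 fell (27.1% and 26.8% of all genes tested), and in RSL3-R cells 11 rose and 3 fell (23.8% and 24.9%). ADAMTS6 rose in both, from 11.8 ± 1.35 CPM to 38.6 ± 3.16 in erastin-R (log2 fold change 1.71, adjusted p = 1.67e-08 by edgeR's quasi-likelihood test). The RSL3-R libraries held 26.2 ± 1.09 CPM (1.15, adjusted p = 7.79e-07). ADAMTS1, which cuts aggrecan and versican, rose in erastin-R by 1.43 (adjusted p = 2.08e-08) and in RSL3-R by 0.41 (adjusted p = 0.00171). ADAMTS15 fell in RSL3-R by 1.41 on the log2 scale (adjusted p = 1.29e-07), from 38.5 ± 3.56 to 14.5 ± 1.25 CPM, and in erastin-R by 0.50 (adjusted p = 8.61e-04).

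ADAM28 and ADAMTS17 were scarce. ADAM28 fell in erastin-R by 1.74 on the log2 scale (adjusted p = 0.00404 by edgeR's quasi-likelihood test), with 15 to 30 counts per vehicle library and 4 to 8 per erastin-R library, and ADAMTS17 by 1.43 (adjusted p = 8.74e-04), with 34 to 50 and 10 to 18 counts. Their log2 fold changes in RSL3-R were -0.19 (adjusted p = 0.703) and 0.01 (adjusted p = 0.983). ADAMTS14, a procollagen N-proteinase, fell in RSL3-R by 1.57 on the log2 scale (adjusted p = 0.0240) on 2 to 12 counts per library, a call lost without vehicle replicate 1 or 2 or RSL3-R replicate 1 or 3, with adjusted p from 0.0571 to 0.115. In erastin-R its log2 fold change was -0.99 (adjusted p = 0.106).

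Of the 6 other inhibitors and partners of metalloproteinases, 5 were tested, and 1 rose and 1 fell in each comparison with vehicle (27.1% and 26.8% of all genes tested in erastin-R, 23.8% and 24.9% in RSL3-R). BSG (basigin), a surface protein known as an inducer of metalloproteinases, held 685 ± 31.0 CPM in vehicle, 671 ± 55.2 in erastin-R and 616 ± 29.7 in RSL3-R. Erastin-R differed from vehicle by -0.03 on the log2 scale (95% interval -0.18 to 0.12, adjusted p = 0.731 by edgeR's quasi-likelihood test). RSL3-R differed by -0.15 (-0.30 to -0.01, adjusted p = 0.0778). All RSL3-R libraries lay below the vehicle libraries, as was so for 31.4% of all genes tested. The RSL3-R value passed the test in 3 of 15 alternatives, over which the adjusted p ran from 0.00173 (without erastin-R replicate 1) to 0.454 (without RSL3-R replicate 1, log2 fold change -0.0787).

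The plasminogen system's other partners (13 genes, 11 tested) counted 4 risen and 3 fallen in erastin-R (27.1% and 26.8% of all genes tested) and 6 risen and 3 fallen in RSL3-R cells (23.8% and 24.9%). SERPINE2, protease nexin 1, which inhibits PLAU, PLAT and thrombin, rose from 24.2 ± 2.24 CPM to 42.2 ± 0.495 in erastin-R (log2 fold change 0.80, adjusted p = 1.06e-06 by edgeR's quasi-likelihood test) and to 125 ± 3.54 in RSL3-R (2.36, adjusted p = 7.45e-11). RSL3-R exceeded erastin-R by 1.56 (adjusted p = 2.59e-09), and the 3 groups did not overlap.

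Of 18 other pericellular serine proteases and inhibitors, 9 were tested, of which 4 rose and 3 fell in erastin-R (27.1% and 26.8% of all genes tested) and 4 rose and 1 fell in RSL3-R (23.8% and 24.9%). SPINT1, which inhibits the hepatocyte growth factor activator and matriptase, rose from 1.64 ± 0.199 CPM to 3.80 ± 0.532 in erastin-R (log2 fold change 1.20, adjusted p = 1.85e-04 by edgeR's quasi-likelihood test). In RSL3-R it reached 11.9 ± 1.68 CPM (2.85, adjusted p = 2.58e-08). TFPI2, a Kunitz-type inhibitor of plasmin that is deposited in the matrix, rose from 39.5 ± 1.74 CPM to 67.8 ± 4.01 (0.78, adjusted p = 5.00e-07) and 144 ± 3.72 (1.86, adjusted p = 1.30e-10). SPINT1, TFPI2 and SERPINE2 were each higher in RSL3-R than in erastin-R, by 1.64, 1.09 and 1.56 on the log2 scale (adjusted p = 2.45e-06, 2.65e-08 and 2.59e-09). These genes were named for the size of their change against vehicle, which was largest in RSL3-R. Their difference from erastin-R is thus not separate evidence. SLPI, an inhibitor of leukocyte elastase, fell in erastin-R by 2.39 on the log2 scale (adjusted p = 0.00140), with 11 to 21 counts per vehicle library and 1 to 4 per erastin-R library. Its log2 fold change in RSL3-R was -0.47 (adjusted p = 0.371).

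**Figure D4:**
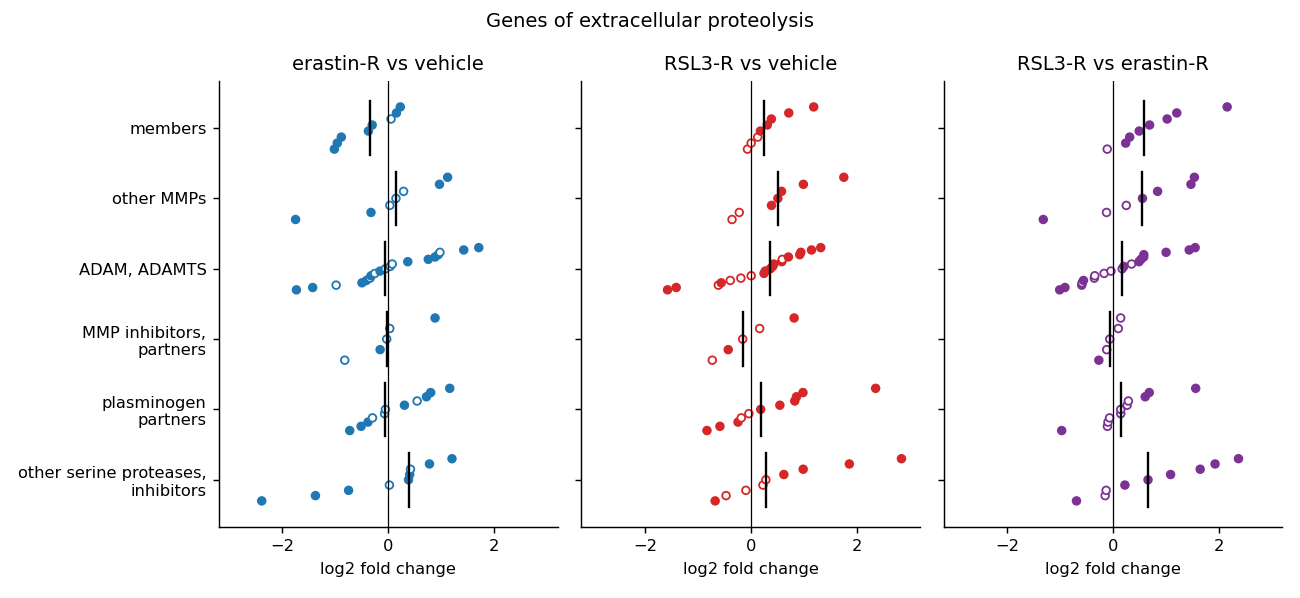
Log2 fold changes (x axis) of the 8 genes tested (the row named members) and of 51 other tested genes of extracellular proteolysis, 1 point per gene, in rows by group and 1 panel per comparison, where filled points have an adjusted p under 0.05 and the vertical bar is the median of the row. The median of the 8 genes is -0.34 for erastin-R and 0.25 for RSL3-R against vehicle, and points far to the right in RSL3-R include SPINT1 at 2.85 and SERPINE2 at 2.36.

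For each of the 8 genes tested, the protein-coding genes with the most similar pattern were sought by Pearson's r of log2 CPM over the 9 libraries, among 12969 candidates. The libraries form 3 groups, so that r mostly reflects the 3 group means, and no p is given. PLAU was most like CHRNB1 (r = 0.999) and MAT2A (0.994), TIMP3 most like KLF10 and MARCKSL1 (0.991 each), and MMP1 most like LRRC56 (0.983) and ZG16B (0.980). TIMP2 was closest to ITGB5 (0.995) and CELSR1 (0.987), PLAT to ZNF521 (0.995) and NARS (0.993), and TIMP1 to ANGPT4 (0.991) and ATF4 (0.984). The values were lower for PLAUR, with CDK5R1 (0.963) and FP565260.6 (0.962), and for MMP14, with EHBP1L1 (0.965) and C6orf48 (0.960). None of the 8 genes tested was among the 2 nearest of another, and MMP3 was not a candidate. With 2 genes picked among 12969 candidates, this does not show whether the 8 genes moved together.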

How the data were processed

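For each library the authors deposited raw counts per gene, the gene length and FPKM values. The analysis took the counts as deposited, the gene length served for levels per kilobase, and the deposited FPKM values were not used. The submitters' processing notes name HISAT2 2.0.5 and featureCounts 1.5.0-p3, and the study's methods state that uniquely mapped reads in exons were used. The build is not named, but all 58735 identifiers, coordinates and lengths equal those of GENCODE release 29 (GRCh38). Groups came from the treatment labels. The counts were analysed with edgeR 4.0.16 in R 4.3.3 (filterByExpr, TMM, glmQLFit and glmQLFTest, 1 model of all 9 libraries, no covariate). SE and 95% intervals follow from each log2 fold change and its F statistic. The biological coefficient of variation was 8.56%, and the correlation of log2 CPM (prior count 3) was 0.986 to 0.992 within and 0.959 to 0.972 between groups. The members and gene lists were chosen with earlier results of these data known. Of the other proteolysis genes, 12 were named by the largest fold change among the 16 past the threshold against vehicle, and 2 further genes were to be named in any case, of which BSG is described and the other is not reported here but remains in the counts of its list. The 2 genes most like each member were also named. Alternatives used DESeq2 1.42.0 and limma 3.58.1. The model was tested on simulated data. The plots used matplotlib 3.10.9 in Python 3.11.15. A planned search of protein sequences was not run.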

Additional observations from a re-analysis of the deposited data

How the results depend on the processing

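Alternatives were DESeq2's size factors in edgeR, DESeq2, quantile normalization with limma, no filter on low counts, a model of only the 2 groups compared, the replicate block, no minimum fold change and each library left out in turn. Of 24 log2 fold changes of the 8 genes tested, 17 kept their direction and their result by the adjusted p in all 15 alternatives. Of 39 of the other named genes 31 did, where SLPI and ADAMTS14 between RSL3-R and erastin-R had 14 alternatives each. The minimum fold change played no part in these counts. The rise of TIMP1 in erastin-R was lost in 10 and that of PLAU in RSL3-R in 6, including the replicate block (adjusted p = 0.0639 and 0.0615), and TIMP3 in RSL3-R passed with only the 2 groups compared (adjusted p = 0.0417). Signs changed only for values that had not passed the test. With 1 library left out, the log2 fold change ranged from -0.000194 to 0.12 for MMP14 in erastin-R, from -0.11 to 0.00718 for MMP14 in RSL3-R, from -0.0159 to 0.0624 for PLAUR in RSL3-R, from -0.0769 to 0.0337 for BSG in erastin-R, and in RSL3-R from -0.60 to 0.10 for MMP9, from -0.38 to 0.208 for ADAM28 and from -0.0926 to 0.180 for ADAMTS17. With no filter PLAUR and ADAMTS17 in RSL3-R were at -0.00376 and -0.00375, and with quantile normalization BSG in erastin-R was at 0.0287 and ADAMTS17 in RSL3-R at -0.159. Members past the threshold in erastin-R numbered 0 without vehicle replicate 1 and 2 without vehicle replicate 3, where MMP1 joined PLAU; without erastin-R replicate 2 MMP1 (-1.18) took the place of PLAU. MMP9 between RSL3-R and erastin-R no longer passed the test without RSL3-R replicate 2 (adjusted p = 0.0643). With no minimum fold change 7, 5 and 7 members and 8735, 7879 and 7969 of all genes were counted in erastin-R against vehicle, RSL3-R against vehicle and RSL3-R against erastin-R, by construction. With the replicate block 1, 1 and 3 members and 2153, 1614 and 1652 of all genes passed the threshold. Whether libraries with the same replicate number were paired is not known from the labels. Deviations from the group means correlated by -0.00488 on average over 9 pairs with the same number. Over 18 pairs with different numbers the average was 0.00252, and 2 of 9 libraries correlated best with their own number. These values cannot show that the libraries were not paired. The cause of the other changes was not tested. Low counts kept MMP3 from being tested.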
